A study of Homo sapiens with 3 samples.

Results

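The MHC class I antigen presentation genes described here are HLA-B, HLA-C, HLA-E, HLA-F, B2M, TAP1, TAP2, TAPBP and NLRC5. They were chosen by name, through their Ensembl identifiers, from the 58037 genes of the count table. All 9 were found, and all 9 reached a mean of 1 CPM across the libraries, as did 16600 genes in all. CPM are counts scaled to a library of standard size, here after TMM scaling, a method that sets the bulk of genes to a common level.

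The study asked how OLFM4, a secreted glycoprotein, acts in prostate epithelium, and its bulk RNA sequencing compared OLFM4-knockout RWPE1 cells with OLFM4-wild ones. RWPE1 is an immortalized line of normal human prostate epithelial cells. The 3 libraries were OLFM4-wild type, OLFM4-knockout, and 1 labelled OLFM4-active, with 1 library each and therefore no replicates. The RNA was depleted of its ribosomal part, and the counts of the 3 libraries summed to 16309906, 58837147 and 23224216. In the study's methods, wild and knockout GFP reporter lines were both made from OLFM4-wild RWPE1 cells with plasmids for OLFM4 activation or, as double nickase, for its knockout, then kept under puromycin, and RNA was taken from cells sorted for GFP. Whether the OLFM4-wild library or the one labelled OLFM4-active came from the wild reporter line is not given in the sources used here. The OLFM4-wild and OLFM4-knockout libraries therefore cannot be taken as matched for plasmid and selection. A line selected in this way can differ from another by more than the targeted gene. OLFM4 itself had 214 counts (11.8 CPM) in the OLFM4-wild library, 131 counts (2.55 CPM) in the OLFM4-knockout library and 16 counts (0.670 CPM) in the library labelled OLFM4-active. The last library thus had the lowest OLFM4 level, which goes against its label. Below they are called the wild, the knockout and the active-labelled library. No test across conditions could be fitted. Every interval below is an exact 95% interval on read counts and reflects counting error alone. A comparison is thus one of libraries rather than of conditions, and both comparisons with the wild library share it.

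Class I molecules show peptides from inside a cell to CD8 T cells and natural killer cells. Cytosolic proteins are cut by the proteasome, the transporter made of TAP1 and TAP2 carries the peptides into the endoplasmic reticulum, and tapasin (TAPBP) holds the transporter beside a heavy chain paired with beta-2-microglobulin (B2M) until a peptide is bound. HLA-B and HLA-C encode classical, highly variable heavy chains, HLA-E and HLA-F encode less variable ones, and NLRC5 is a transactivator that works at class I promoters, which interferons and NF-kappa B also induce.

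Class I promoters are known for a row of elements: an enhancer bound by NF-kappa B, an interferon-stimulated response element (ISRE) bound by interferon regulatory factors, and the SXY module, whose parts hold TGACG-like and inverted CCAAT motifs and through which NLRC5 acts. RefSeq promoter sequences of GRCh38.p14 were matched for 7 of the 9 genes, all but HLA-E and NLRC5. They are shown because they place these elements in the genes compared below. Each is written 5′ to 3′ along the gene, with positions counted from the RefSeq start, and capitals mark matches on either strand to the IRF core AANNGAAA, the kappa B consensus, TGACG and CCAAT.
HLA-B, chr6:31357219-31357368, minus strand, positions -189 to -40: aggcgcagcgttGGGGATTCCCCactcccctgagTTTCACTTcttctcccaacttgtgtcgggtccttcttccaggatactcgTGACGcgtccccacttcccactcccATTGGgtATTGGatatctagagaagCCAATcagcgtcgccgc
HLA-C, chr6:31272132-31272296, minus strand, positions -204 to -40: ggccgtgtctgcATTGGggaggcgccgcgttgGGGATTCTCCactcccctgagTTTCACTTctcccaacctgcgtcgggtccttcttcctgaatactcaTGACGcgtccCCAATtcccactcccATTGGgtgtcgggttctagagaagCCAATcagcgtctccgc
HLA-F, chr6:29723266-29723393, plus strand, positions -168 to -41: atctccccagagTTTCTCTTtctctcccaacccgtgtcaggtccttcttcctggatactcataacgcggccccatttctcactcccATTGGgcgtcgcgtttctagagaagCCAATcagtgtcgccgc
B2M, chr15:44711363-44711484, plus strand, positions -154 to -33: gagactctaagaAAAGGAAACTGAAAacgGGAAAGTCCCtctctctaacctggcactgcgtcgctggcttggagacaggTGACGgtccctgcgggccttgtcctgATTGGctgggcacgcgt
TAP1, chr6:32853755-32853954, minus strand, positions -250 to -51: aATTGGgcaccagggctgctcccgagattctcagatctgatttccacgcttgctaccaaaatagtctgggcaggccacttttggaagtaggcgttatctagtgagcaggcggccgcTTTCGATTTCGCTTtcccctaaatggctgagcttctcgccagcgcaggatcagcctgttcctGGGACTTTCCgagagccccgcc
TAP2, chr6:32838758-32838813, minus strand, positions -74 to -19: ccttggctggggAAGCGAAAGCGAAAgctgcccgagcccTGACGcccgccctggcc
TAPBP, chr6:33314079-33314146, minus strand, positions -68 to -1: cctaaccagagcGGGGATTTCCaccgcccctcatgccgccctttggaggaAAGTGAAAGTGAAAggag

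HLA-B and HLA-C carried nearly the same row, with a further CCAAT box in HLA-C at -192 to -188, before its kappa B match. In HLA-B and HLA-C the kappa B match was followed by an inverted IRF core, TGACG and CCAAT boxes, and their 250-base promoters were 89.0% identical. HLA-F was 79.8% identical to HLA-B and 78.2% to HLA-C, and it held the IRF core and 2 CCAAT boxes, whereas TGACG and the kappa B consensus were not among its letters in this window. All other pairs of the 7 genes were between 41.6% and 49.2% identical. B2M had the elements in another order, with an IRF core that occurs in tandem, then kappa B, TGACG and CCAAT. TAP1, TAP2 and TAPBP also had tandem IRF cores, which in TAPBP ended at position -5 beside the start.

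As a description of how common these letters are, 6.87% of all 34943 RefSeq promoters held the ISRE GAAANNGAA in the same 250 bases, against 5 of the 7 class I genes. HLA-B and HLA-C were without it. A class I gene counts here if any of its starts held the motif, whereas the shares are of single promoters. The IRF core was held by 20.3% of all promoters and by 7 of the 7 genes, and the kappa B consensus by 9.95% and by 5. Both of these motifs were added after the sequences were seen, and the ISRE and the IRF core overlap. A stricter kappa B motif, GGGANTTCC, stood in 1.59% of all promoters and in TAPBP. CCAAT stood in 32% of all promoters and in 5 of the genes, TGACG in 21.2% and in 4, the GC box GGGCGG in 42.5% and in 4, and the STAT motif TTCNNNGAA in 6.56% and in 1, at the second start of TAP1. A match is not a measured binding site, and the class I alleles of RWPE1 can differ from this reference.

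**Figure D1:**
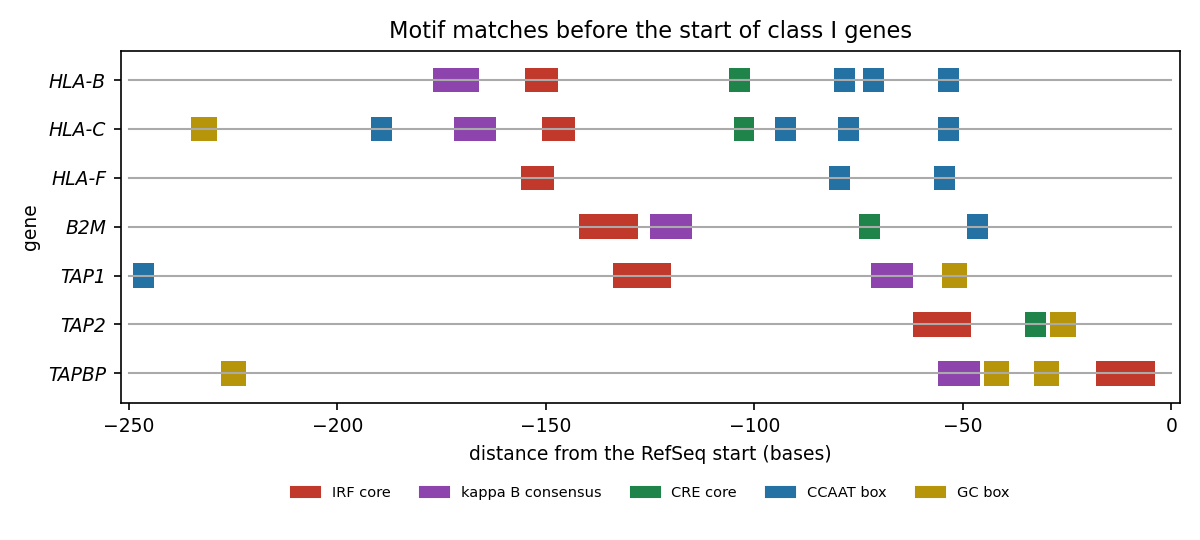
Motif matches in the 250 bases before the RefSeq start of 7 class I genes; the horizontal axis is the distance from the start in bases, each row is a gene (the first start for TAP1), and coloured blocks are matches on either strand, with touching or overlapping matches of a motif drawn as 1 block. Each of the 7 genes has a red IRF core block, and the kappa B blocks stand in 5 genes.

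Within each library the class I genes spanned a wide range of levels. Per length, as counts per kilobase of merged exons and unit of scaled library size, as for CPM, B2M stood highest and NLRC5 lowest in all 3 libraries. B2M, the light chain shared by every class I molecule, was at 168, 126 and 98.5 in the wild, knockout and active-labelled libraries. NLRC5 was at 0.964, 0.786 and 0.564 in the same order, so that B2M lay 174, 161 and 175 times above it.

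Between them, HLA-C stood next to B2M in each library, followed by HLA-E. In the wild library HLA-C was at 38.5 (36.7 to 40.4) and HLA-E at 33.5 (32.0 to 35.1), which do not overlap, whereas in the active-labelled library HLA-C at 28.0 (26.7 to 29.4) and HLA-E at 25.9 (24.7 to 27.1) overlapped. TAPBP followed in each library. HLA-B came next in the wild library, at 15.5 (14.6 to 16.3), above TAP1 at 8.50 (7.90 to 9.14). In the knockout library TAP1, at 9.12 (8.74 to 9.51), stood above HLA-B, at 8.22 (7.86 to 8.59). In the active-labelled library the intervals of HLA-B at 6.44, TAP1 at 6.18 and TAP2 at 5.74 overlapped, so with merged exons these 3 have no order there. The order depends on the length used: with the canonical transcript HLA-B of the wild library was at 46.6, above HLA-E at 38.4. With that length HLA-B was also above TAP1 in the knockout library (24.7 against 16.1) and the active-labelled library (19.4 against 10.9). With the longest transcript TAP1 was above HLA-B in both (15.5 against 10.7, and 10.5 against 8.39). As a share of the 9 genes' summed counts, with no allowance for length, B2M went from 48.6% (47.9 to 49.3) in the wild to 45.1% (44.6 to 45.6) in the knockout and 42.8% (42.1 to 43.5) in the active-labelled library.

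**Figure D2:**
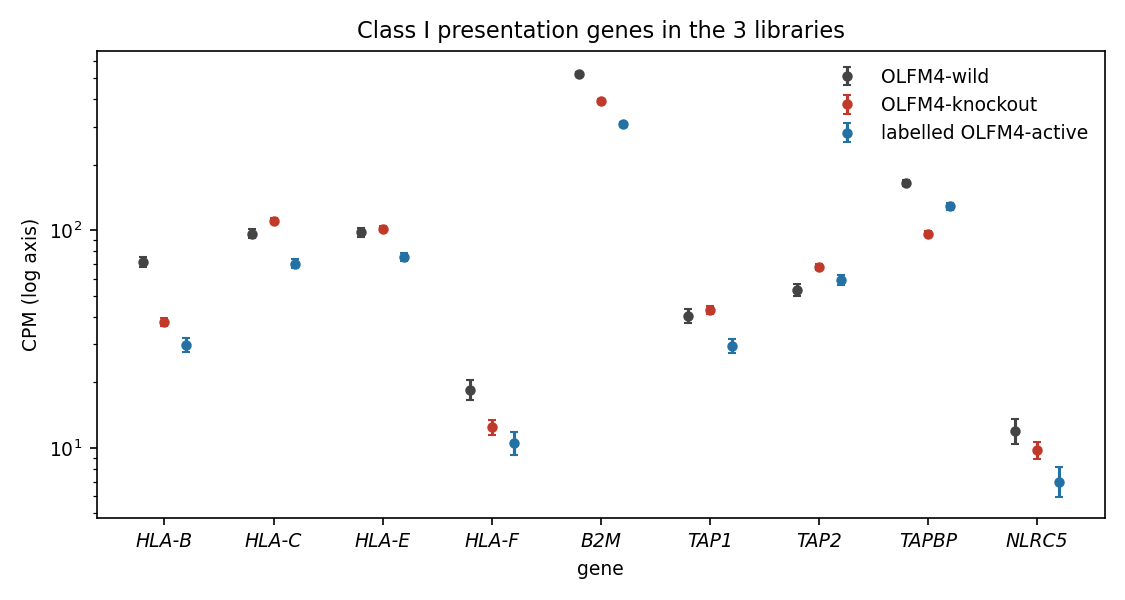
CPM of the 9 class I genes (log axis) in the wild, knockout and active-labelled libraries; points are single libraries and bars are 95% counting intervals, not replicate error. The wild library is highest of the 3 for HLA-B, HLA-F, B2M, TAPBP and NLRC5, and the active-labelled library is lowest for 7 genes, all but TAP2 and TAPBP.

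Between the knockout and the wild library the direction of some class I genes depended on the scaling. With TMM scaling HLA-B, TAPBP, HLA-F, B2M and NLRC5 were lower in the knockout library, while TAP2 and HLA-C were slightly higher. With library totals all 9 were below 0, from HLA-B at -1.27 to TAP2 at -0.01. No gene of the 9 was beyond a log2 fold change of 1 in either direction. Over all 16600 genes, 5.77% were above 1 and 7.56% below -1. The median of the 9 genes was -0.30, and that of all genes was 0.10. Scaling by library totals lowers every log2 fold change of this comparison by 0.35, which takes the median of all genes to -0.26 and that of the class I genes to -0.65. With totals 2.18% of genes were above 1 and 14.1% below -1, and HLA-B and TAPBP were below -1. The distance of the class I median from that of all genes was -0.39, which a shift common to all genes leaves in place, and -0.26 from the median of all genes with a count.

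Among the heavy chain genes, HLA-B (chromosome 6, 31353872 to 31367067 in GRCh38, minus strand) had 1300 counts, or 71.5 CPM, in the wild library. It had 1950 counts (38.0 CPM) in the knockout library and 711 counts (29.8 CPM) in the active-labelled library. Both other libraries were lower, and their intervals did not reach that of the wild library. The log2 fold change was -0.91 (-1.02 to -0.81) in the knockout against the wild library, lower than in all but 8.70% of genes. It was -1.27 (-1.40 to -1.13) in the active-labelled library against the wild library.

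HLA-C, the other classical heavy chain gene (chromosome 6, 31268749 to 31272130, minus strand), behaved otherwise. Its level was 96.6 CPM from 1755 counts in the wild library, 111 CPM from 5697 counts in the knockout library and 70.3 CPM from 1680 counts in the active-labelled library. The knockout library was the highest of the 3, with a log2 fold change of 0.20 (0.12 to 0.28) against the wild library, whose sign turned with library totals (-0.15). The active-labelled library lay at -0.46 (-0.56 to -0.36).

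HLA-E encodes the heavy chain that shows signal peptides of other class I chains to natural killer cells (chromosome 6, 30489509 to 30494194, plus strand). It stood at 97.9, 102 and 75.5 CPM in the wild, knockout and active-labelled libraries, from 1779, 5224 and 1805 counts. The knockout and wild intervals overlapped (log2 fold change 0.06, -0.02 to 0.13, and -0.30 with library totals), and the active-labelled library was lower (-0.37, -0.47 to -0.28).

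HLA-F (chromosome 6, 29722775 to 29738528, plus strand) had the lowest level per length of the 4 heavy chain genes in each library, and stood at 18.5, 12.4 and 10.5 CPM from 336, 637 and 251 counts. Both other libraries were lower than the wild library, by log2 fold changes of -0.58 (-0.77 to -0.38) and -0.82 (-1.06 to -0.58), and their own intervals of CPM overlapped.

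Since ratios of counts within a library need no scaling, the heavy chains were also set against each other, for pairs chosen after their values were seen. There were 74.1 HLA-B counts per 100 HLA-C counts in the wild library (68.9 to 79.6), against 34.2 (32.5 to 36.0) in the knockout library and 42.3 (38.7 to 46.2) in the active-labelled library. HLA-F per 100 HLA-E counts was 18.9 (16.8 to 21.2), 12.2 (11.2 to 13.2) and 13.9 (12.1 to 15.9). In both pairs the wild library was the highest, with an interval that did not overlap the others.

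B2M (chromosome 15, 44711358 to 44718851, plus strand) had 9527 counts (524 CPM) in the wild library, 20247 (394 CPM) in the knockout library and 7346 (307 CPM) in the active-labelled library. The 3 intervals were apart, in this descending order. The log2 fold changes against the wild library were -0.41 (-0.45 to -0.38) and -0.77 (-0.81 to -0.73). Per 100 counts of the 4 heavy chain genes together, B2M had 184 (178 to 191), 149.9 (146.7 to 153) and 165 (159 to 171) counts, so that B2M was highest relative to the heavy chains in the wild library too.

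TAP1 and TAP2, the paired chains of the peptide transporter, lie close together on chromosome 6 (32845209 to 32853816 and 32821833 to 32838739, minus strand). TAP1 was at 40.3, 43.2 and 29.3 CPM in the wild, knockout and active-labelled libraries, from 732, 2218 and 700 counts. The first 2 intervals overlapped (log2 fold change 0.10, -0.02 to 0.22, and -0.25 with library totals), and the active-labelled library was lower (-0.46, -0.61 to -0.31).

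TAP2 was at 53.4, 67.6 and 59.4 CPM, from 970, 3472 and 1420 counts. It was the 1 class I gene that was higher in both other libraries than in the wild library with TMM scaling, by 0.34 (0.24 to 0.45) and 0.15 (0.04 to 0.27). With library totals these values were -0.01 and 0.04. In GENCODE 44 TAP2 shares 2023 exon bases with a protein-coding gene of the same strand, ENSG00000250264, which had 605, 2327 and 909 counts, and how pairs in the shared bases were divided is not given in the sources used here. There were 75.5 TAP1 counts per 100 TAP2 counts in the wild library (68.5 to 83.2), 63.9 (60.5 to 67.4) in the knockout library and 49.3 (45.0 to 54.0) in the active-labelled library.

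TAPBP, which encodes tapasin (chromosome 6, 33299694 to 33314284, minus strand), was the 1 class I gene with its lowest level in the knockout library. It had 2999 counts (165 CPM) in the wild library, 4955 (96.5 CPM) in the knockout library and 3082 (129 CPM) in the active-labelled library, and the 3 intervals were apart. Its log2 fold change was -0.77 (-0.84 to -0.71) in the knockout against the wild library and -0.36 (-0.43 to -0.28) in the active-labelled library. TAPBP per 100 TAP2 counts was 309, 143 and 217 in the 3 libraries.

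NLRC5 (chromosome 16, 56989485 to 57083531, plus strand) had the lowest level per length of the 9 genes, with 217, 500 and 167 counts, or 11.9, 9.74 and 6.99 CPM. The interval of CPM of the knockout library (8.91 to 10.6) overlapped that of the wild library (10.4 to 13.6) slightly, with a log2 fold change of -0.30 (-0.53 to -0.06), and the active-labelled library was the lowest (-0.77, -1.07 to -0.48).

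**Figure D3:**
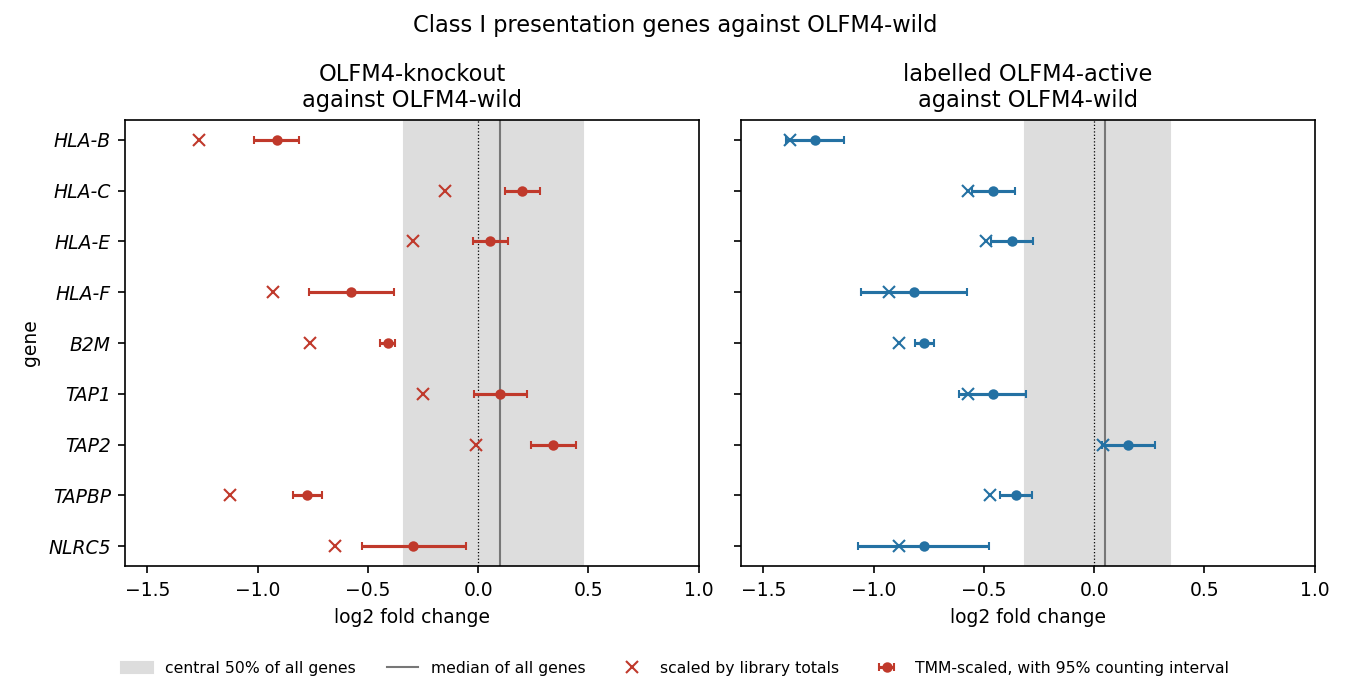
Log2 fold changes of the 9 class I genes against the wild library, for the knockout library (left) and the active-labelled library (right); dots with bars are TMM-scaled values with 95% counting intervals, crosses are values scaled by library totals, the grey band holds the central 50% of all genes and the grey line is their median. HLA-B lies farthest left in both panels (-0.91 and -1.27), and TAP2 farthest right (0.34 and 0.15).

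In the active-labelled library against the wild library 8 of the 9 class I genes were lower and TAP2 was higher. HLA-B alone was below a log2 fold change of -1, and no class I gene was above 1. Of all genes, 6.73% were below -1 and 3.78% above 1 (8.46% and 2.84% with library totals). The median of the 9 genes was -0.46 against 0.05 over all genes, a distance of -0.51. Library totals lower these values by 0.11 and turn the sign of none of the 9.

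The knockout and active-labelled libraries were also set against each other. In the knockout library 8 of the 9 genes were higher than in the active-labelled library, from HLA-C at 0.66 (0.58 to 0.74) down to TAP2 at 0.19 (0.10 to 0.28), and TAPBP was lower, at -0.42 (-0.48 to -0.35). Library totals lower these values by 0.24, which turns TAP2 to -0.05. No gene was beyond 1 in either direction, where 2.95% of all genes were above 1 and 3.39% below -1 (1.29% and 6.97% with library totals). The median was 0.36, or 0.28 above that of all genes.

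**Figure D4:**
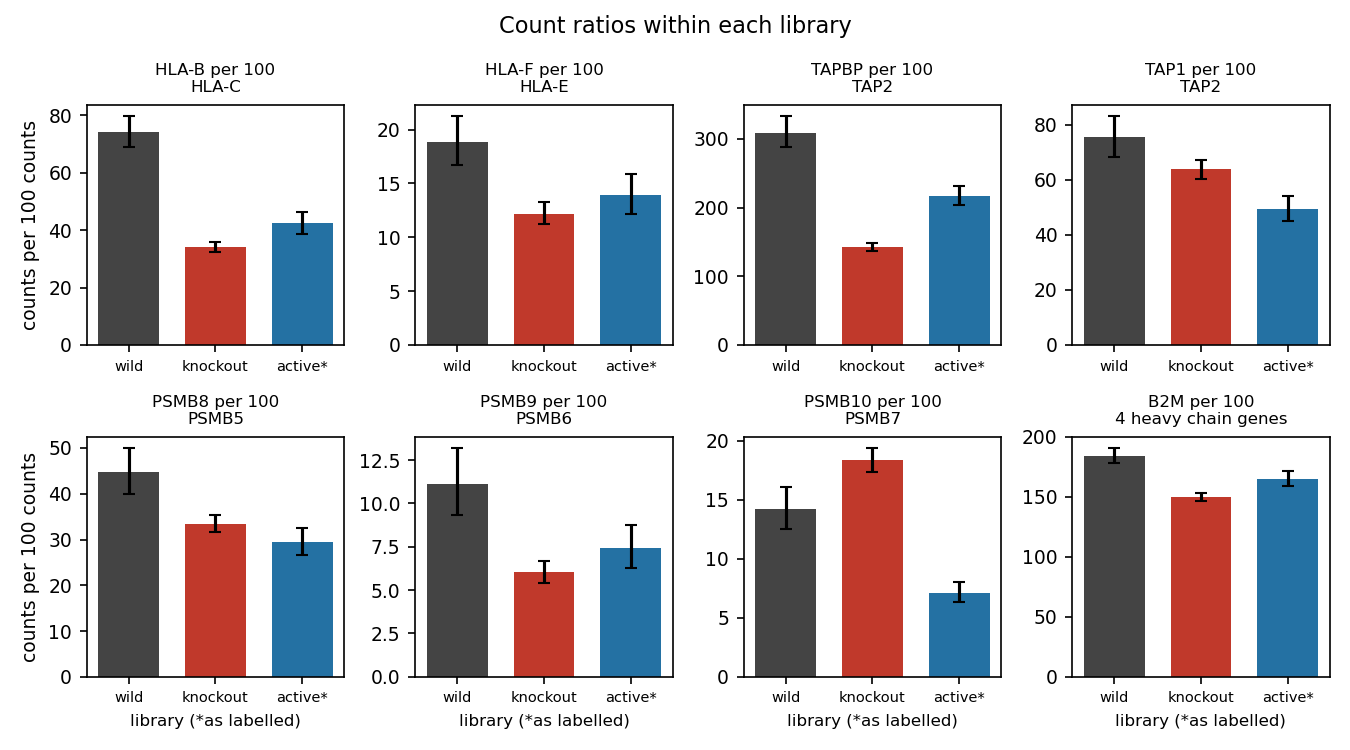
Counts of 1 gene per 100 counts of another in each library, a ratio that needs no scaling between libraries; bars start at 0, error bars are 95% counting intervals, and the bar marked with an asterisk is the active-labelled library. The pairs, and which gene of each is counted per 100 of the other, were chosen after their values were seen. HLA-B per 100 HLA-C counts is 74.1, 34.2 and 42.3 in the wild, knockout and active-labelled libraries, and PSMB10 per 100 PSMB7 is highest in the knockout library.

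The proteasome subunits that supply peptides were described next. The immunoproteasome subunits PSMB8, PSMB9 and PSMB10 replace PSMB5, PSMB6 and PSMB7 in cells that prepare antigens, and PSME1 and PSME2 form the PA28 activator. In the knockout against the wild library 4 of these 5 genes were above 0 and none beyond 1, with a median of 0.44, from PSMB9 at -0.15 (-0.43 to 0.14) to PSMB10 at 0.95 (0.77 to 1.14). With library totals the median was 0.09, and PSME1 turned from 0.05 to -0.30. In the active-labelled library all 5 were below 0, with a median of -0.33, from PSME1 at -0.53 to PSME2 at -0.06. PSMB9, which lies beside TAP1, had 147, 375 and 154 counts (8.09, 7.31 and 6.45 CPM).

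The constitutive counterparts PSMB5, PSMB6, PSMB7 and PSME3 were higher in both the knockout and the active-labelled library, with medians of 0.66 and 0.46, except that PSME3 turned from 0.33 to -0.02 in the knockout library with library totals. Per 100 counts of the subunit it replaces, PSMB8 had 44.7, 33.4 and 29.4 counts in the wild, knockout and active-labelled libraries, and PSMB9 had 11.1, 6.03 and 7.44. PSMB10 had 14.2 (12.5 to 16.1), 18.3 (17.4 to 19.4) and 7.13 (6.31 to 8.03). The log2 fold change of PSMB10 was 1.33 (1.15 to 1.52) in the knockout against the active-labelled library. The ratio to the constitutive subunit was thus highest in the wild library for PSMB8 and PSMB9, and in the knockout library for PSMB10.

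The partners that load and trim peptides in the endoplasmic reticulum lay close to all genes. Their medians were 0.06 in the knockout and -0.08 in the active-labelled library against the wild library, with none of 6 beyond 1 in either. With library totals the medians were -0.29 and -0.19, and CALR was below -1 in the second comparison (-1.03). ERAP1, a peptidase that trims peptides to length, was at 127, 128 and 127 CPM in the 3 libraries. In the first comparison the list ran from the chaperone CALR (-0.18) to the chaperone CANX (0.35, and near 0 with library totals). CALR had its lowest level in the active-labelled library, at 243 CPM against 458 in the wild library (-0.91, -0.96 to -0.87). TAPBPL, a relative of tapasin that edits peptides, was at 9.30, 10.1 and 6.78 CPM.

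Of 12 factors that bind class I promoters or help to, IRF1 and IRF2 were lowest in the knockout against the wild library. IRF1, an activator at ISRE sites, had 572, 805 and 220 counts, or 31.5, 15.7 and 9.21 CPM, with log2 fold changes of -1.01 (-1.16 to -0.85) and -1.77 (-2.00 to -1.55) against the wild library. IRF2, which binds the same sites, stood at 22.8, 11.5 and 11.3 CPM (-0.99 and -1.02). The RFX subunits that hold NLRC5 at the SXY module had no common direction: RFXAP was at -0.89 and RFXANK at 0.45 in the knockout against the wild library. The NF-kappa B subunits differed too, with RELA at -0.31 and NFKB1 at 0.43. NFYA, a subunit of the CCAAT-binding factor, was at 20.4, 24.3 and 41.6 CPM, highest in the active-labelled library (1.03, 0.85 to 1.20, against wild). In all, 1 of the 12 was below -1 and none above 1 in the first comparison, where 7.56% of all genes were below -1 and 5.77% above 1. IRF1 and IRF2 were below and NFYA above in the second, where the shares of all genes were 6.73% and 3.78%. The medians were -0.17 and -0.12. With library totals IRF1 (-1.36), IRF2 (-1.34) and RFXAP (-1.24) were below -1 in the first comparison, where 14.1% of all genes then were, and NFYA was no longer above 1 in the second (0.91).

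Genes of interferon signalling were mixed as well. Of 11, IRF9, a DNA-binding partner of STAT2, was below -1 in the knockout against the wild library (-1.35, -1.49 to -1.21), and it had 43.9, 17.3 and 14.1 CPM in the 3 libraries. The median of the list was -0.22, and the highest value was that of SOCS1, an inhibitor of the pathway (0.66, -0.34 to 1.95, from 9, 42 and 41 counts). In the active-labelled library IRF9 and STAT2 were below -1 and IFNAR2 and SOCS1 above 1, with a median of -0.03. SOCS1, at 0.495, 0.818 and 1.72 CPM, reached a mean of 1 CPM only through the active-labelled library, which favours a high value there. The shares of all genes below -1 were 7.56% and 6.73% in these comparisons, and 3.78% were above 1 in the second. With library totals JAK2 (-1.31) was also below -1 in the first comparison, and in the second IFNGR1 was below -1 (-1.04) and IFNAR2 no longer above 1 (0.89).

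The ligands gave few counts. IFNG, IFNB1, IFNL2 and IFNL3 had 0 counts in each library, which by a floor of 3 counts allows up to 0.165, 0.0584 and 0.126 CPM in the wild, knockout and active-labelled libraries, and IFNL1 had 3, 0 and 0. The epithelial interferon IFNE had 20, 210 and 139 counts (1.10, 4.09 and 5.82 CPM), and IFNK had 33, 40 and 11 (1.82, 0.779 and 0.460 CPM). IFNE was thus higher and IFNK lower in both other libraries than in the wild library.

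Genes that interferon induces were lower in both the knockout and the active-labelled library, with medians farther from 0 than that of the class I genes. All 18 were below 0 in each comparison with the wild library, 14 of them below -1 in the knockout library and 15 in the active-labelled library, with medians of -1.89 and -1.98. Over all genes the shares below -1 were 7.56% and 6.73%. The lowest in the knockout library were IFI27 (-4.27), IFI44L (-3.94), GBP2 (-3.62), RSAD2 (-3.48), OAS2 (-3.10) and MX1 (-2.64). GBP2 had 115, 26 and 4 counts (6.33, 0.506 and 0.167 CPM) and reached a mean of 1 CPM only through the wild library. The filter thus favours its low values, which are among the 14 and the 15. MX1, an antiviral GTPase, was at 93.8, 15.1 and 9.92 CPM in the 3 libraries. ISG15, a ubiquitin-like protein, was nearest to 0 in the knockout library (-0.02), at 58.7, 58.0 and 27.0 CPM. Their part in the class I values was not tested. Of the class I genes HLA-B had the lowest value in both comparisons, -0.91 and -1.27, still above the medians of the interferon-induced genes.

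**Figure D5:**
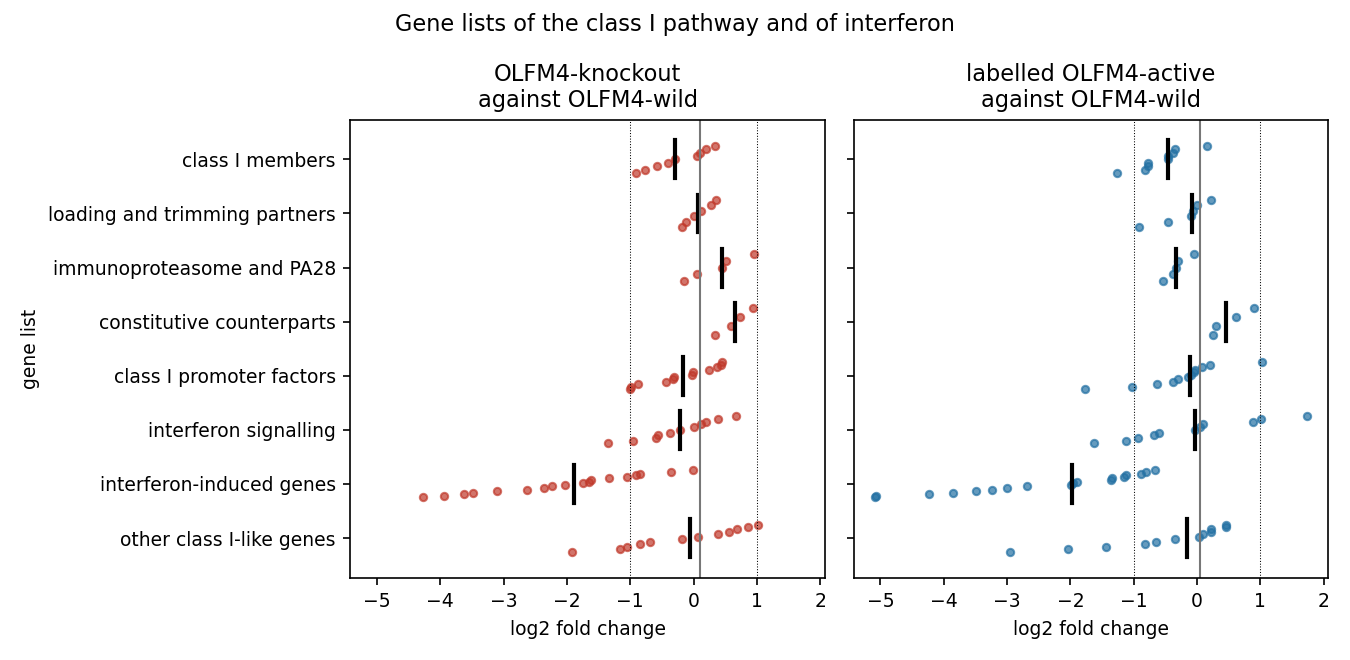
Log2 fold changes against the wild library of the class I genes and 7 companion lists, for the knockout library (left) and the active-labelled library (right); each dot is a gene that reached a mean of 1 CPM, black bars are list medians, the grey line is the median of all genes and dotted lines stand at -1 and 1. The interferon-induced genes have medians of -1.89 and -1.98, against -0.30 and -0.46 for the class I genes.

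Other genes of the class I fold, many of them ligands of natural killer cell receptors or lipid and antibody carriers, had no common direction. Of 15, 12 reached a mean of 1 CPM, with medians of -0.06 and -0.16. In the knockout against the wild library MICB, an NKG2D ligand, was lowest (-1.92, from 161, 120 and 51 counts), followed by ULBP1 (-1.17) and the IgG receptor FCGRT (-1.06), and ULBP3 was highest (1.02, or 0.66 with library totals). Of all genes 7.56% were below -1 and 5.77% above 1. With library totals MR1 (-1.21) and RAET1L (-1.03) were also below -1, where 14.1% of all genes then were. In the active-labelled library FCGRT (-2.95, from 61, 83 and 10 counts), MICB (-2.04) and RAET1L (-1.45) were below -1 and none above 1, where the shares of all genes were 6.73% and 3.78%. MR1, which shows vitamin B metabolites to T cells, was at 43.2, 23.9 and 24.5 CPM. HLA-G had 0, 4 and 0 counts.

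Class II presentation genes, which act mainly in dendritic cells, macrophages and B cells, gave few or no counts. HLA-DRA, HLA-DPA1, HLA-DPB1, HLA-DQA1 and HLA-DQB1 had 0 counts in all libraries, and 3 of the 10 listed genes reached a mean of 1 CPM. The invariant chain gene CD74 had 39, 22 and 11 counts (-2.31 and -2.18). At 2.15, 0.429 and 0.460 CPM, CD74 reached a mean of 1 CPM only through the wild library, which favours low values against that library. CIITA, the class II counterpart of NLRC5, had 125, 462 and 203 counts (0.38 and 0.30). Of 9 class I pseudogenes 3 reached a mean of 1 CPM, and of these HLA-V was below -1 in the knockout library (-1.39) with 163, 176 and 57 counts.

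The identity of the cells was checked against markers. Basal epithelial markers were abundant, with KRT5 between 12232 and 27077 CPM, KRT14 between 4006 and 9666 CPM, TP63 between 414 and 472 CPM and ITGA6 between 1168 and 2211 CPM. KRT5 and KRT14 were above 1 in the knockout against the wild library (1.15 and 1.27), and not with library totals (0.79 and 0.92). Of the luminal markers, the keratin genes KRT8 (282, 231 and 146 CPM) and KRT18 (177, 191 and 157 CPM) were abundant in all 3 libraries, while KLK3 had 2, 0 and 0 counts. KRT8 was at -0.95 in the active-labelled against the wild library, or -1.06 with library totals. The part of these markers in the class I values was not tested. Of the leukocyte markers 1 of 6 had more than 3 counts in each library, ITGAM (14 counts) in the wild library and CD14 (25 and 6 counts) in the others, and the list summed to 0.881, 0.565 and 0.293 CPM, with CD3E and LYZ at 0. The 3 endothelial markers summed to 0.605, 0.136 and 0.0837 CPM. Of the 5 fibroblast and smooth muscle markers LUM and ACTG2 were at 0 and COL1A1 was at 30.2, 25.8 and 21.8 CPM. COL1A2, with 50, 268 and 24 counts, was instead highest in the knockout library. Its log2 fold changes against the wild library were 0.91 in the knockout and -1.44 in the active-labelled library. DCN had 18, 33 and 0 counts. The leukocyte list therefore had its defining markers at or near 0. In bulk RNA, fewer cells of a type and less RNA per cell cannot be told apart.

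Class I genes resemble each other and some overlap other genes, which matters for counts of uniquely mapped pairs. Of the 75-base windows of merged exons, 3.63% for TAPBP, 2.24% for HLA-E, 1.76% for HLA-C, 1.62% for HLA-F, 0.386% for TAP1, 0.237% for HLA-B and 0.0624% for TAP2 were found at another place in the main chromosomes of GRCh38, and none for B2M and NLRC5. These shares hold for the reference alleles. Reads of an allele that differs from the reference can be lost in alignment, which for HLA-B and HLA-C cannot be assessed from the counts. In GENCODE 44 the exons of HLA-B overlap 1421 bases of DHFRP2 on the same strand, which had 0 counts. On the opposite strand, which the stranded counting separates, HLA-F-AS1 had 123, 136 and 59 counts and PSMB8-AS1, which overlaps TAP1, had 226, 603 and 160.

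The genes outside all lists whose pair of log2 fold changes lay closest to the class I medians were FLRT2, SLC25A23, MADD, MIR205HG and TNPO2, among 10532 genes that reached a mean of 10 CPM. Their Euclidean distances were 0.00207 to 0.0277 log2 units, over 2 comparisons from 3 libraries. FLRT2, a membrane protein of cell adhesion, was nearest, with -0.29 and -0.46. With 3 libraries many genes fall near any pair of values, and the likeness describes these libraries only.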

How the data were processed

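Bulk RNA of 3 RWPE1 libraries was analysed. The authors trimmed reads with cutadapt, aligned them with HISAT2 to GRCh38 with GENCODE genes, counted uniquely mapped, reversely stranded pairs per gene with featureCounts and deposited these raw counts. The GENCODE release is not given in the sources used here, and 98.1% of the identifiers are in GENCODE 44, which gave positions and lengths. Library totals were 16309906 to 58837147 counts, with a floor of 3 counts.

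Library sizes were scaled with TMM (edgeR 4.0.16, R 4.3.3), and log2 fold changes were taken with an offset of 0.5 counts, as in voom. Fold changes carry conditional Clopper-Pearson intervals and CPM Clopper-Pearson intervals, at 95%. Python 3.11.15, numpy 2.4.6, pandas 2.3.3, scipy 1.17.1 and matplotlib 3.10.9 were used. Genes beyond a log2 fold change of 1 were counted among those that reached a mean of 1 CPM, since 1 library per condition allows no test. The intervals were tested on simulated counts that held counting error alone, the error they assume. That test cannot speak to variation between cultures or lines. Pairs for ratios and 2 motifs were chosen after their values were seen.

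The 9 genes, 10 companion lists and 5 marker lists were chosen with earlier results of these data known. Named were all 9 genes, the extremes of each list, up to 6 genes per list beyond 1 in knockout against wild, and the markers. Other genes of the lists are named for their role, after their values were seen. Some listed genes are not reported by name here. The 5 most alike genes were those with the smallest Euclidean distance. Alternatives were library totals, DESeq2 1.42.0 size factors, upper quartile factors, offsets of 1 and 5 counts, library totals without the 10 most abundant genes, thinning to 16309906 counts, other filters and other gene lengths.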

Additional observations from a re-analysis of the deposited data

How the results depend on the processing

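Of 189 gene values under 7 alternatives, 138 moved by less than their counting interval, 51 moved by more, and 9 changed sign. The sign changes were of HLA-C, HLA-E, TAP1 and TAP2 in the knockout against the wild library and of TAP2 in the knockout library against the active-labelled one, under library totals, upper quartile factors or library totals without the 10 most abundant genes. In the first of these comparisons HLA-C ranged from -0.15 to 0.21, HLA-E from -0.30 to 0.07, TAP1 from -0.25 to 0.11 and TAP2 from -0.01 to 0.35, whereas HLA-B ranged from -1.27 to -0.90, TAPBP from -1.13 to -0.75 and B2M from -0.76 to -0.40. The number of class I genes below -1 there became 2 with library totals, 1 with upper quartile factors and 2 without the 10 most abundant genes, and the median became -0.65 with totals and -0.55 without those genes. For the knockout library against the active-labelled one the median became 0.12 with totals, 0.25 with upper quartile factors and 0.23 without those genes. These scalings shift all genes of a comparison alike and so leave the distance of the class I median from that of all genes in place by construction. Over other sets of genes this distance, -0.39 in the first comparison, became -0.26 over all genes with a count and -0.35 over genes with a mean of 10 CPM, where NLRC5 drops out. Over all genes with a count, 10.1% were above 1 and 24.2% below -1 in that comparison. The level of B2M over NLRC5 per length became 129, 119 and 129 with the longest transcript and 316, 291 and 316 with the canonical one, added after seeing the data, in the wild, knockout and active-labelled libraries. No paired analysis was possible because each condition has 1 library, and for the same reason no replicate could be left out. Depth limits the genes with few counts, such as NLRC5 and HLA-F, whose intervals are the widest of the 9.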
